A study of Mus musculus with 6 samples.

Results

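Wnt ligands, the Frizzled, Lrp and Ror receptors that bind them, and the secreted proteins that raise or damp their signal were examined as one family of 47 genes, among 22180 genes measured. Members were taken by symbol from the array annotation: 19 Wnt genes, 10 Fzd genes, 4 Rspo genes, 4 Sfrp genes, 4 Dkk genes, and Lrp5, Lrp6, Ror1, Ror2, Wif1 and Axin2. All 47 were tested, with no filter on low values. The RNA came from CD105-sorted cells of mouse gliomas, which the labels call tumor-associated endothelial cells, kept for 12 h in glioma-conditioned medium before extraction. One group (genotype Tie2-Cre,Pfn1fl/fl:Y129F, mice 1, 3 and 4) carried Cre, and the other (Pfn1fl/fl:Y129F, mice 6, 7 and 10) did not. Both had floxed Pfn1 alleles and the Y129F form of profilin-1, a change at a tyrosine that can be phosphorylated. The Tie2 promoter drives Cre in endothelial cells and also in blood cell lineages, so recombination is not limited to one cell type. Animal ages were not given in the sources used here.

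Wnt proteins are secreted lipid-modified signals. On the canonical route they bind a Frizzled receptor together with Lrp5 or Lrp6, which stabilises beta-catenin and lets it act with TCF and LEF factors on genes such as Axin2. R-spondins raise the signal by keeping Frizzled receptors at the cell surface, while sFRP and Dickkopf proteins and Wif1 oppose it outside the cell. In brain vessels, Wnt7a and Wnt7b acting through Fzd4 are known to maintain the blood-brain barrier.

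Values are log2 of RMA intensity on Affymetrix Mouse Gene 2.0 ST arrays, with 1 array per mouse. A change is the Tie2-Cre mean minus the no Cre mean. Its standard error (SE) comes from a limma fit over all 22180 genes, and a gene passed when its Benjamini-Hochberg adjusted p was under 0.05. Pfn1 itself lay at 12.41 ± 0.0045 (SD, n = 3 mice) with Tie2-Cre and at 12.37 ± 0.026 (SD, n = 3 mice) without Cre (limma adjusted p 0.776). That signal does not separate the Y129F form from the unchanged one. Xist ran from 5.36 to 6.06 with Tie2-Cre and from 11.16 to 11.44 without, so genotype and sex cannot be told apart in any comparison made here. Of 15 endothelial markers, 13 did not pass. Pecam1 (6.08 to 6.43) and Cdh5 (6.61 to 7.06) lay below the median gene of each array (7.08 to 7.14), whereas the sorting antigen Eng lay at 11.72 to 12.09. Brightness differs between probe sets, so such levels do not give the share of endothelial cells.

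Of the 47 members, 14 passed the threshold, or 29.8%, against 12.0% of all genes tested. The members were somewhat brighter than all genes (median of gene means 7.49, beside 7.12), and dim genes count in the 12.0%. Among genes kept when the dimmest 33.3% were left out, 3310 of 14786 passed, beside 10 higher and 4 lower of 43 members. With Tie2-Cre, 10 members were higher (4.78% of all genes were) and 4 were lower (7.17% of all genes were). The higher members were Rspo2, Sfrp2, Sfrp1, Fzd4, Ror1, Wnt16, Fzd5, Dkk2, Fzd1 and Dkk3. The lower ones were Rspo3, Wnt5a, Wnt2 and Lrp5. Despite these calls the median change over the family was 0.01, beside -0.0042 over all genes, because most of the 33 other members lay near 0. Their changes ran from -0.33 to 0.49. Arrays of the 2 groups did not overlap in 20 of the 47 members (42.6%), against 31.0% of all genes.

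**Figure D1:**
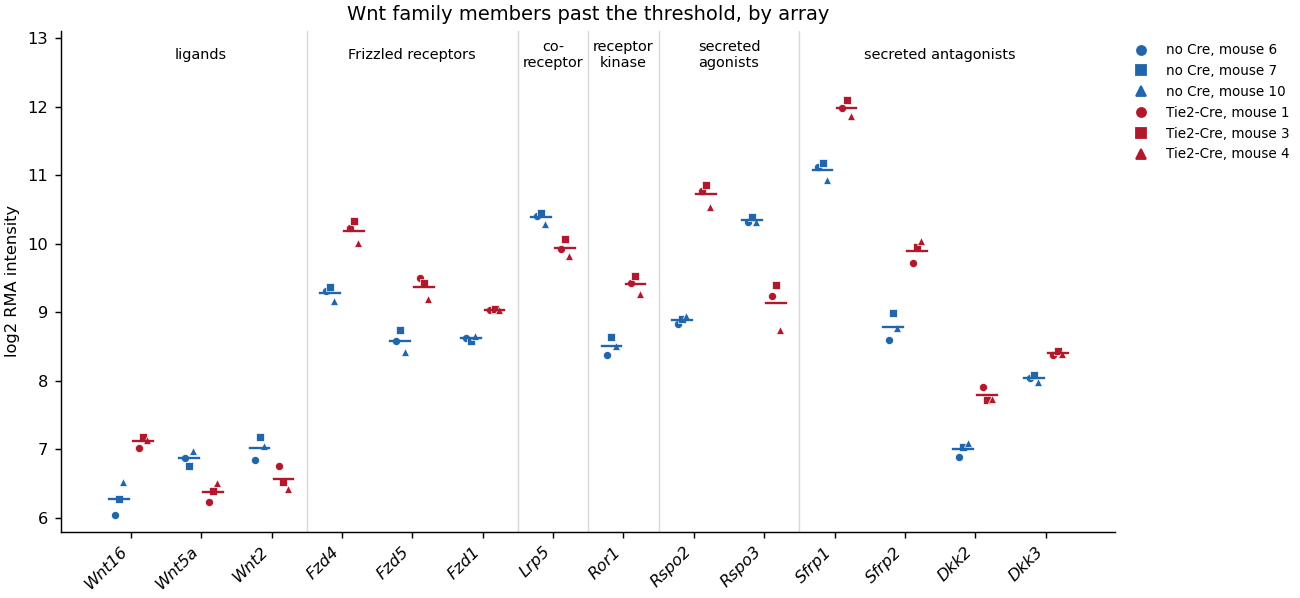
Log2 RMA intensity (vertical axis) of the 14 members past the threshold, ordered by role. Each point is 1 array (red, Tie2-Cre mice 1, 3 and 4; blue, no Cre mice 6, 7 and 10) and bars are group means. In each of the 14 members the red and blue points do not overlap, as in 31.0% of all genes. The 14 were selected by their p on these same arrays, so this separation is not further support.

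R-spondins held both the largest rise and the largest fall of the family. Rspo2 encodes an agonist that binds Lgr receptors and the ligases Rnf43 and Znrf3. Its log2 intensity was 10.77, 10.86 and 10.53 in Tie2-Cre mice 1, 3 and 4, and 8.83, 8.90 and 8.94 in no Cre mice 6, 7 and 10. All 3 Tie2-Cre mice lay well above all 3 controls, and the rise of 1.83 (SE 0.096, 3.56-fold, limma adjusted p 3.11e-05) was the 23rd largest among the 1061 genes called higher. Rspo3, which acts through the same receptors and is known from vascular development, went the other way. It read 9.24, 9.40 and 8.74 in mice 1, 3 and 4 against 10.32, 10.39 and 10.32 in mice 6, 7 and 10. The fall of 1.22 on the log2 scale (SE 0.15, limma adjusted p 0.00195) corresponds to a level 2.32-fold higher without Cre. Tie2-Cre mouse 4 was the lowest of the 6 in Rspo3, and the SD of the Tie2-Cre group (0.34) was above that of the controls (0.042). Rspo1 (-0.11, 95% confidence interval -0.27 to 0.04) and Rspo4 (0.04, -0.13 to 0.22) did not pass.

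Of 19 Wnt ligands 1 was higher, 2 were lower and 16 did not pass. This called share of 15.8% lay near the 12.0% of all genes. In limma, 3 of the 19 (15.8%) had an unadjusted p under 0.05, below the 24.9% of all genes. Wnt16, a ligand best known from bone, measured 7.02, 7.18 and 7.14 in Tie2-Cre mice 1, 3 and 4 and 6.03, 6.27 and 6.53 in no Cre mice 6, 7 and 10. Its change was 0.84 (SE 0.12, limma adjusted p 0.00400), or 1.79-fold, and the highest control stayed below the lowest Tie2-Cre mouse. Wnt5a, the prototype of beta-catenin-independent Wnt signals, was at 6.23, 6.40 and 6.51 with Tie2-Cre and at 6.88, 6.75 and 6.98 without. This change of -0.49 (SE 0.097, limma adjusted p 0.0146) lost its call without no Cre mouse 10 (-0.43, adjusted p 0.0583). Wnt2, a canonical ligand, was at 6.76, 6.52 and 6.42 with Tie2-Cre and at 6.84, 7.17 and 7.05 without Cre. Its groups were parted by a narrow gap between mice 1 and 6. The change of -0.45 (SE 0.12, limma adjusted p 0.0424) passed only just. It lost the call when mouse 3, 4, 7 or 10 was left out (adjusted p 0.115 to 0.132), or when probe sets without a single symbol were added to the test (adjusted p 0.106). The 16 ligands that did not pass had changes of -0.11 to 0.21, and their 95% confidence intervals reached from -0.32 to 0.43. Among them, the barrier ligands Wnt7a (-0.07, SE 0.090, interval -0.27 to 0.14) and Wnt7b (-0.06, SE 0.11, interval -0.32 to 0.20) were named after their values were seen. No detection call came with the arrays. Ligand means ran from 5.68 to 8.06 around a median gene of 7.12, so a ligand that is not expressed cannot be told from one that is dim, and folds of dim genes are understated.

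Of 10 receptors of the Frizzled family, 3 were higher, 0 lower and 7 not past the threshold (30% called, beside 12.0% of all genes). By sign, 5 changes were above 0 and 5 below, with a median of -0.024. In limma, 6 of the 10 had an unadjusted p under 0.05, beside 24.9% of all genes. Of these 6, Fzd3 and Fzd6 were lower. Fzd4, the receptor of norrin and of the barrier Wnts, read 10.22, 10.34 and 10.01 in Tie2-Cre mice 1, 3 and 4 and 9.31, 9.36 and 9.17 in no Cre mice 6, 7 and 10. Every Tie2-Cre mouse was higher, and the change was 0.91 (SE 0.100, 1.88-fold, limma adjusted p 0.00107). Fzd5, known from the vessels of yolk sac and placenta, was at 9.50, 9.42 and 9.20 with Tie2-Cre and at 8.58, 8.74 and 8.43 without, a change of 0.79 (SE 0.11, limma adjusted p 0.00290). Fzd1 lay at 9.03, 9.05 and 9.03 against 8.62, 8.58 and 8.65. The SDs were only 0.0088 and 0.034, and a change as small as 0.42 (SE 0.062, limma adjusted p 0.00435) passed. That SE does not rest on these SDs alone, since limma draws each gene's spread toward a common value. Fzd8 was apart between the groups but spread widely with Tie2-Cre. It measured 8.51, 8.69 and 9.39 in mice 1, 3 and 4 and 8.41, 8.41 and 8.31 in mice 6, 7 and 10, and its change of 0.49 (SE 0.20) did not pass (limma adjusted p 0.183). Tie2-Cre mouse 4 alone was far above the rest, and without it the change was 0.22. Fzd3 (-0.33, SE 0.12, adjusted p 0.125) and Fzd6 (-0.30, SE 0.12, adjusted p 0.169) did not pass in limma. Fzd3 passed without no Cre mouse 10 (-0.47, adjusted p 0.0306), and Fzd6 without Tie2-Cre mouse 4 (-0.44, adjusted p 0.0178). Fzd7 differed by 0.04 (95% confidence interval -0.13 to 0.20). These 4 Frizzled genes were named after their values were seen.

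The co-receptors parted from each other. Lrp5, which with Fzd4 is needed for vessels of the retina, was at 9.92, 10.07 and 9.82 in Tie2-Cre mice 1, 3 and 4 and at 10.41, 10.45 and 10.29 in no Cre mice 6, 7 and 10. Its change of -0.45 (SE 0.086, limma adjusted p 0.0134) lost the call without no Cre mouse 7 (adjusted p 0.0551). Lrp6 lay at 10.46 to 10.52 in all 6 mice, a change of 0.0041 (SE 0.062) with a 95% confidence interval of -0.14 to 0.15. Ror1, a receptor tyrosine kinase for Wnt5a, was higher: 9.42, 9.53 and 9.26 in mice 1, 3 and 4 against 8.38, 8.63 and 8.51 in mice 6, 7 and 10. The rise was 0.90 (SE 0.097, 1.86-fold, limma adjusted p 0.00102), in the same mice in which Wnt5a was lower. Its relative Ror2 did not pass (-0.09, 95% confidence interval -0.35 to 0.18).

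Promoter sequences were read from RefSeq (GRCm38.p6) for 31 of the 47 members, as the 250 bases before each annotated start. Some genes have several starts, so the 31 members had 34 windows. Among members past the threshold, Rspo2, Rspo3, Sfrp1, Dkk3, Lrp5 and Wnt5a had no window. The windows were searched on both strands for TCAAAG, the core that TCF and LEF factors bind. No other motif was searched. The core was in at least 1 window of 5 of the 31 members (16.1%), beside 15.8% of all 27025 genes with a window. Counted by window, the shares were 14.7% and 13.8%. Of the 8 members past the threshold that had a window, 2 held it, and of the 23 others 3 did. Those 3 were Dkk1 (2 matches), Wnt11 (in 1 of its 2 windows) and Wnt5b (in 1 of its 3). The 2 past the threshold were Fzd1 and Ror1, both higher with Tie2-Cre, as were all of the 8 except Wnt2. Fzd1 and Ror1 are shown with Axin2, the usual readout of the pathway, whose window holds no match. Capitals mark the core, which begins 242 bases before the start of Fzd1 and 205 before that of Ror1. A match describes the letters and is not evidence of binding.
Fzd1, chr5:4758217-4758466, minus strand: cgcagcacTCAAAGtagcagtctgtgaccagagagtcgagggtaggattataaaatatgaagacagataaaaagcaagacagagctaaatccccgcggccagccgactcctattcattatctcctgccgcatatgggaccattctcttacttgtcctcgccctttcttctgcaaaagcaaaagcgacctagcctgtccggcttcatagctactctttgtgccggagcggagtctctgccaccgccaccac
Ror1, chr4:100095541-100095790, plus strand: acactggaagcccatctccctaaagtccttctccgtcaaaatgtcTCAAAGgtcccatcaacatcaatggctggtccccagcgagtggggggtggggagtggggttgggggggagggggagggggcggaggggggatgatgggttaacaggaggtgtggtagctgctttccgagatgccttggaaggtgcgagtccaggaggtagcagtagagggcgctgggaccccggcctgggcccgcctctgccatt
Axin2, chr11:108920099-108920348, plus strand: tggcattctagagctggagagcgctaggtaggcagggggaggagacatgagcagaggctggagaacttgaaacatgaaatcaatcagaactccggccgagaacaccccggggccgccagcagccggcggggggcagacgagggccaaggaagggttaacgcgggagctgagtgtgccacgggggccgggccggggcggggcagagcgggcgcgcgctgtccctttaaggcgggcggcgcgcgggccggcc

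Among the secreted antagonists that passed, the direction was not shared once Frzb is counted, which fell by 1.64 on the log2 scale. Frzb is a further sFRP-type decoy that the symbol rule leaves out of the family. Of the 9 antagonists that are members (4 Sfrp genes, 4 Dkk genes and Wif1), 4 were higher, 0 lower and 5 not past the threshold. That is 44.4% called, beside 12.0% of all genes. By sign, 7 of the 9 changes were above 0 and 2 below, with a median of 0.22. In limma, 5 of the 9 (55.6%) had an unadjusted p under 0.05, beside 24.9% of all genes. Sfrp1, a Wnt-binding decoy, was at 11.99, 12.10 and 11.86 in Tie2-Cre mice 1, 3 and 4 and at 11.12, 11.17 and 10.92 in no Cre mice 6, 7 and 10. The rise of 0.91 (SE 0.095, 1.88-fold, limma adjusted p 0.000848) put all 3 Tie2-Cre mice above all controls. Sfrp2, a second decoy, read 9.72, 9.95 and 10.04 against 8.59, 8.99 and 8.77. The rise was 1.12 (SE 0.12, 2.17-fold, limma adjusted p 0.00105), or 0.75 with its probe sets averaged, where the call was kept. Dkk2, which binds Lrp5 and Lrp6, stood at 7.91, 7.72 and 7.74 in the Tie2-Cre mice and at 6.89, 7.03 and 7.09 in the controls, a rise of 0.79 (SE 0.086, limma adjusted p 0.00105). Dkk3, a divergent relative, was at 8.38, 8.44 and 8.38 against 8.04, 8.09 and 7.98. This was a small rise of 0.36 (SE 0.066, limma adjusted p 0.0105) over a narrow spread. Not past the threshold were Sfrp4 (-0.27, SE 0.12, adjusted p 0.200), Sfrp5 (0.22, SE 0.14, adjusted p 0.397), Dkk1 (0.10, SE 0.069, adjusted p 0.459), Dkk4 (-0.20, SE 0.097, adjusted p 0.263) and Wif1 (0.13, SE 0.10, adjusted p 0.523) in limma.

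**Figure D2:**
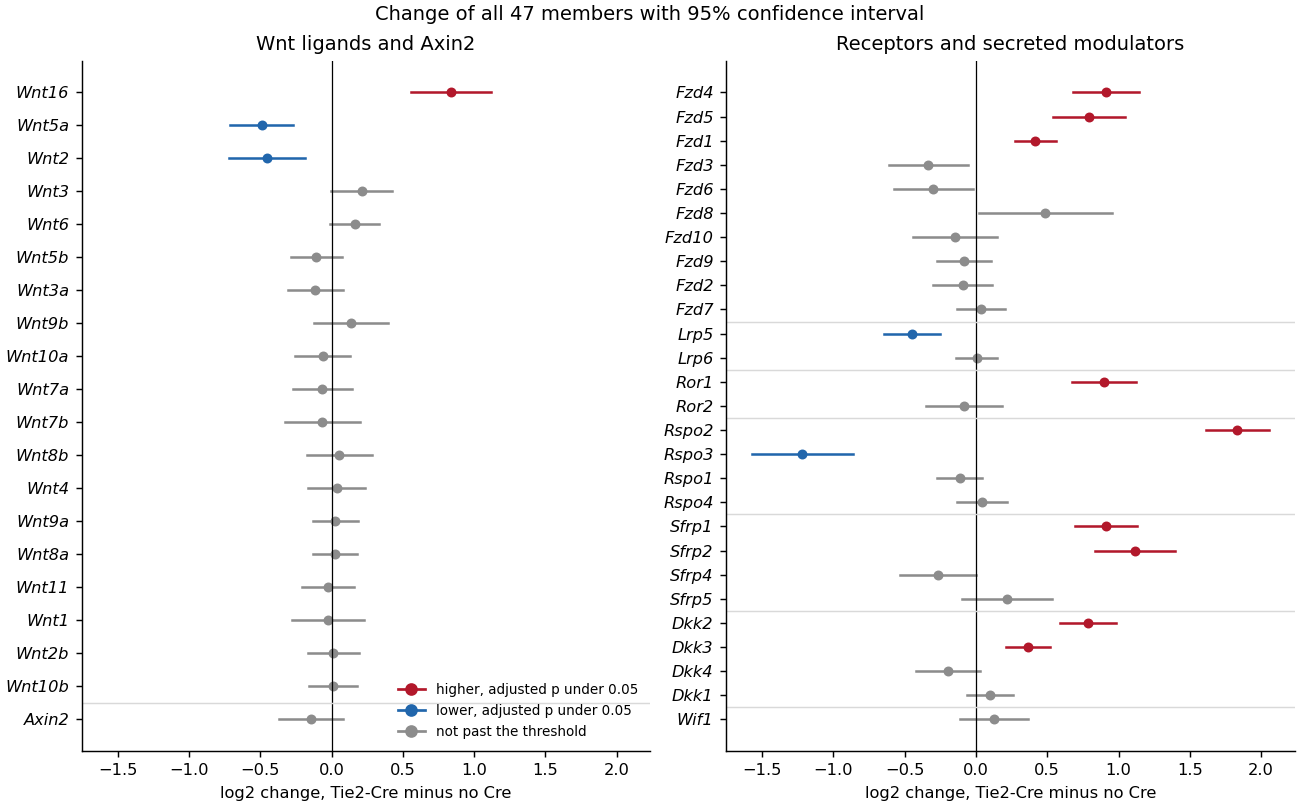
Log2 change (horizontal axis, Tie2-Cre minus no Cre) of all 47 members with the 95% confidence interval of the limma fit, in blocks by subfamily. Red marks the 10 members called higher, blue the 4 called lower and grey the 33 not past the threshold; Rspo2 at 1.83 and Rspo3 at -1.22 are the ends of the range.

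Axin2, a negative regulator that beta-catenin itself induces, read 7.27, 6.96 and 7.25 in Tie2-Cre mice 1, 3 and 4 and 7.22, 7.34 and 7.36 in no Cre mice 6, 7 and 10. The groups overlapped, and the change of -0.14 (SE 0.098, limma adjusted p 0.426) had a 95% confidence interval of -0.37 to 0.08. Among 20 measured targets of beta-catenin and TCF, Axin2 included, 2 were higher, 2 lower and 16 not past the threshold. Their called share was 20%, beside 12.0% of all genes, and their median change was 0.04. The higher ones were Nkd1, a feedback inhibitor that binds Dishevelled (0.92, SE 0.11, limma adjusted p 0.00158), and the G1 cyclin Ccnd1 (0.54, SE 0.070, adjusted p 0.00223). Lower were the growth regulator Myc (-0.53, SE 0.076, limma adjusted p 0.00353) and Twist1 (-0.28, SE 0.074, adjusted p 0.0490), a call that leaving out any single mouse ended (adjusted p 0.0548 to 0.152). The call of Twist1 also ended after another quantile normalization, with centred arrays, with array weights and with the added probe sets (adjusted p 0.0511 to 0.110). Lef1 (0.04), Notum (0.07), Rnf43 (0.07), Znrf3 (-0.09) and Sp5 (-0.08), also targets, did not pass and were named after their values were seen.

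Outside the 47 members, 122 genes of the 7 pathway lists were measured, and 28 of them (23%) passed, 15 higher and 13 lower, again beside 12.0% of all genes. Their median change was 0.03. The lower count fell to 8 without Tie2-Cre mouse 1, to 7 without no Cre mouse 7 and to 7 when probe sets without a single symbol were added. Without no Cre mouse 10 the higher count was 10.

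Of 22 receptor regulators and other receptors, 5 were higher, 2 lower and 15 not past the threshold (median change 0.11). That is 31.8% called, beside 12.0% of all genes. Cthrc1, a secreted glycoprotein that helps Wnts bind Frizzled and Ror2, rose from 8.74, 8.74 and 8.92 in mice 6, 7 and 10 to 10.71, 10.85 and 10.97 in mice 1, 3 and 4. The change of 2.05 (SE 0.090) was larger than that of any of the 47 members. Igfbp4, an IGF carrier that also restrains Wnt signals, rose by 1.02 (SE 0.082), and Adgra2, the co-receptor that with Reck relays Wnt7 signals in brain vessels, by 0.89 (SE 0.098). Frzb, the third sFRP-type decoy, fell: 10.05, 10.02 and 9.36 in mice 1, 3 and 4 against 11.44, 11.51 and 11.39 in mice 6, 7 and 10, a change of -1.64 (SE 0.17, limma adjusted p 0.000868). Tie2-Cre mouse 4 was the lowest of the 6 in Frzb, as it was in Rspo3. The other calls, named after their values were seen, were Kremen1 (0.42) and Mcc (0.25), both higher, and Lgr6 (-0.72), lower. Sost, an Lrp5 and Lrp6 antagonist likewise picked on its values, stood at 7.53, 7.53 and 8.78 with Tie2-Cre and at 6.98, 6.97 and 6.84 without. With mouse 4 so far above mice 1 and 3, its change of 1.01 (SE 0.30) did not pass (limma adjusted p 0.0716).

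**Figure D3:**
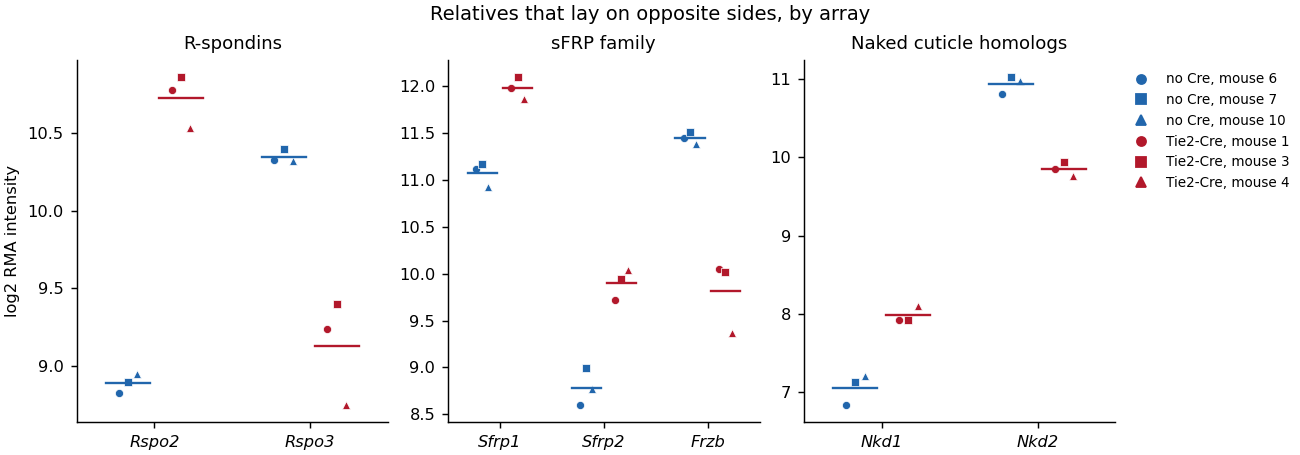
Log2 RMA intensity (vertical axis, a separate range in each panel) by array for close relatives that lay on opposite sides, chosen after their values were seen. Red points are Tie2-Cre mice and blue points no Cre mice, with bars at group means. Rspo2, Sfrp1, Sfrp2 and Nkd1 are higher and Rspo3, Frzb and Nkd2 lower with Tie2-Cre. No red and blue points overlap within a gene, as in 31.0% of all genes.

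Of 11 genes of Wnt secretion and release, 1 was higher, 2 lower and 8 not past the threshold. Called were 27.3%, beside 12.0% of all genes. The sulfatase Sulf1, which trims heparan sulfate and so frees bound Wnts, changed by -1.40 (SE 0.083), from 12.32, 12.32 and 12.35 in mice 6, 7 and 10 to 10.84, 11.09 and 10.86 in mice 1, 3 and 4. Its relative Sulf2 was also lower (-0.39, SE 0.083, limma adjusted p 0.0204), though not when mouse 1, 3, 6 or 7 was left out (adjusted p 0.0563 to 0.0735) or with the added probe sets (0.0595). The Wnt-cleaving protease Trabd2b was higher (0.49, SE 0.12, limma adjusted p 0.0369). That call was kept when mouse 1 or mouse 4 was left out and lost without any other mouse (adjusted p 0.0720 to 0.115) and with the added probe sets (0.0963). Porcn and Wls, which acylate and carry Wnts to the surface, changed by 0.18 and 0.04 and did not pass; both were named after their values were seen.

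Inside the cell, 5 of 24 genes of the destruction complex and Dishevelled branch were higher, 2 lower and 17 not past the threshold. Their called share was 29.2%, beside 12.0% of all genes. The Naked cuticle homologs were on opposite sides. Nkd1 lay at 7.93, 7.92 and 8.10 in mice 1, 3 and 4 and at 6.83, 7.13 and 7.22 in mice 6, 7 and 10. Nkd2 lay at 9.85, 9.93 and 9.75 against 10.81, 11.03 and 10.97, a change of -1.09 (SE 0.085, limma adjusted p 0.000219). Dact3, a Dishevelled antagonist, was higher by 0.49 (SE 0.090), and Apc2, a relative of the Apc scaffold, by 0.42 (SE 0.079). Ctnnb1, the gene of beta-catenin, changed by 0.03 (95% confidence interval -0.11 to 0.18) and was named after its values were seen. Nuclear partners of beta-catenin held 1 higher, 1 lower and 15 not past the threshold of 17. Their called share of 11.8% lay near the 12.0% of all genes. The coactivator Bcl9l rose by 0.40 (SE 0.069), and the corepressor Tle1 changed by -0.33 (SE 0.071, limma adjusted p 0.0205). The Tle1 call ended without mouse 1, 6 or 7, with its probe sets averaged and with the added probe sets (adjusted p 0.0576 to 0.0748).

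Planar polarity and other beta-catenin-independent transducers held 3 higher of 31, 0 lower and 28 that did not pass. Their called share of 9.68% lay near the 12.0% of all genes, and in limma 8 of the 31 (25.8%) had an unadjusted p under 0.05, near the 24.9% of all genes. Besides Ror1, the higher ones were the calcium-dependent kinase Camk2a (0.68, SE 0.069) and the phospholipase Plcb1 (0.45, SE 0.086, adjusted p 0.0136 in limma, and 0.0525 and 0.0528 without no Cre mouse 7 or 10).

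Of 14 measured brain endothelial genes known to depend on Wnt signals, 0 were higher, 4 lower and 10 not past the threshold. The called share was 28.6%, beside 12.0% of all genes. In limma, 5 had an unadjusted p under 0.05, and the median change was -0.11. Their means ran from 5.91 to 11.06 with a median of 7.01, beside a median gene of 7.12. A dim gene that did not pass, such as Cldn5 (mean 5.91) or Plvap (6.54), may not be expressed at all. The transcription factor Foxf2 changed by -0.73 (SE 0.076, limma adjusted p 0.000846) and the efflux pump Abcg2 by -0.76 (SE 0.087, adjusted p 0.00134). The glucose transporter Slc2a1 changed by -0.42 (SE 0.086, limma adjusted p 0.0170), but by -0.14 with the mean of its probe sets (adjusted p 0.364). It also lost the call without any single no Cre mouse (adjusted p 0.0510 to 0.0652) and with the added probe sets (0.0524). The pump Abcb1a changed by -0.46 (SE 0.11, limma adjusted p 0.0311), a call that was kept without no Cre mouse 6 or 10 and lost without any other mouse (adjusted p 0.0603 to 0.0891) and with the added probe sets (0.0844). Plvap, a gene of leaky vessels that Wnt signals repress, unlike the others named here, changed by 0.05 and did not pass. The barrier genes Cldn5 (-0.16) and Mfsd2a (0.09) did not pass either, and all 3 were named after their values were seen.

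**Figure D4:**
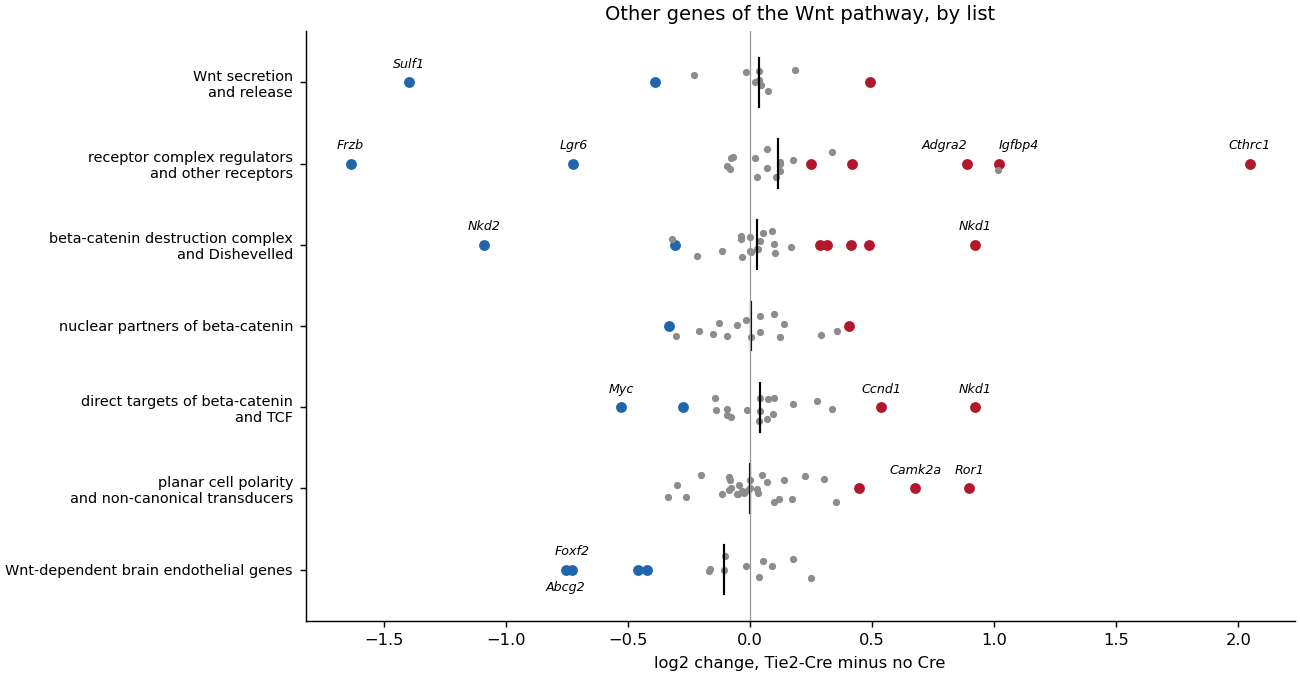
Log2 change (horizontal axis, Tie2-Cre minus no Cre) of the measured genes of 7 Wnt pathway lists, 1 point per gene, with black bars at list medians. Red and blue points passed the threshold as higher and lower, grey points did not, and names are given for passed genes with a change of at least 0.5; Cthrc1 (2.05) and Frzb (-1.64) are the extremes.

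Markers of other cell types moved between the same groups of mice. Beside 12.0% of all genes, 58.3% of fibroblast, 50% of pericyte and smooth muscle and 41.7% of mesothelial markers passed. The share was 21.4% for macrophage, 20% for glioma and astrocyte and 13.3% for endothelial markers. Fibroblast markers were higher in 5 of 12 and lower in 2. Their summed intensities were 25089 to 27609 in the Tie2-Cre mice and 23913 to 24268 in the controls. Dpt changed by 3.54, the most of this list, and Pdgfra by 1.65, while Dcn changed by -0.76. Dcn made up 19.1% to 39.7% of the sum. The other 11 markers summed to 19983 to 21549 against 14424 to 14698. Pericyte and smooth muscle markers were higher in 6 of 12 and lower in 0, with sums of 31039 to 37783 against 21945 to 23324. Mesothelial markers were lower in 5 of 12 and higher in 0, with sums of 1589 to 1776 against 4158 to 4552, and their member Upk1b changed by -3.29. Macrophage markers were lower in 3 of 14 and higher in 0 (1494 to 1602 against 1785 to 1917). Glioma and astrocyte markers were higher in 2 of 10 and lower in 0 (2563 to 3409 against 2106 to 2355). The endothelial list had 1 higher (Flt1) and 1 lower (Eng) of 15 (4817 to 5112 against 5429 to 5633). Eng made up 66.2% to 77.6% of that sum, and the other 14 markers summed to 1356 to 1727 against 1247 to 1260, the opposite direction. No marker is at 0, since RMA values have a background. The part of these cell types in the changes of Rspo2, Rspo3, Sfrp1, Sfrp2, Dkk2, Frzb and the other members was not tested, and in bulk RNA fewer cells of a type and less RNA per cell cannot be told apart.

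Within groups the median SD of the members was 0.12 with Tie2-Cre and 0.091 without Cre, slightly above the 0.10 and 0.089 over all genes. Tie2-Cre mouse 4 was the array farthest from its own group mean in 15 of the 47 members, no Cre mouse 10 in 10, and each other mouse in 3 to 8. The widest Tie2-Cre spreads were those of Fzd8, Rspo3 and Fzd6, with SDs of 0.47, 0.34 and 0.25, and mouse 4 was the outermost Tie2-Cre mouse in all 3. Leaving mouse 4 out kept all 10 higher calls.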

How the data were processed

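RNA of 6 mice was hybridised to 6 arrays, 3 per group. Intensities of 5.13 to 17822, on a linear scale, were deposited; the authors had run RMA in Expression Console, per the labels' sample descriptions. Genome build and program version are not given in the sources used here. With 3 arrays per group, precision is limited by their number. The p-values set each change against the spread between these mice, which limma draws toward a value common to all genes.

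Of 41345 probe sets, 23521 had exactly 1 gene symbol, 1814 had several and 16010 were not listed. The brightest probe set of a gene (mean over all 6 arrays) was kept, which gave 22180 genes. The 47 members came from 50 probe sets. The log2 values were fitted with limma 3.58.1 (lmFit, eBayes, two-sided) in R 4.3.3 (data.table, version 1.17.8), adjusted over all 22180 genes. Mouse numbers differ between groups, so no block was used. The pipeline was tested on simulated data.

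Members, pathway lists and marker lists were chosen with earlier results of these data known. Named by rule were all members past the threshold, with each array's value for changes of at least 0.5 log2, Axin2, Lrp5, Lrp6, the member of smallest p in each subfamily without a call, and up to 4 genes past the threshold per pathway list. Alternatives were added probe sets, a mean log2 of at least 5, the dimmest 33.3% left out, quantile normalization again, centred arrays, averaged probe sets, array weights, eBayes with trend and robust, a change of at least 1.5-fold besides the adjusted p, and leaving out each mouse.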

Additional observations from a re-analysis of the deposited data

How the results depend on the processing

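The count of 10 higher members was 10 under every alternative except a change of at least 1.5-fold besides the adjusted p, which gave 8. The count of 4 lower members was 1 with that minimum, and 2 to 4 when single mice were left out. Of the 14 calls, 9 were kept under all 15 alternatives. The other 5 were lost at least once; for Fzd1 and Dkk3 this was only at the 1.5-fold minimum, and for Wnt2, Wnt5a and Lrp5 also when single mice were left out. Of the 33 other members, 2 (Fzd3 and Fzd6) passed under 1 alternative each. The pathway counts of 15 higher and 13 lower became 5 and 6 with the 1.5-fold minimum, 10 to 15 and 7 to 11 when single mice were left out, and 7 lower with the added probe sets; the cause was not tested. No paired analysis was possible because the groups share no mouse number.

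No called member changed direction. Among members not past the threshold, 13 turned sign under at least 1 alternative, all within 0.21 log2 of 0. When single mice were left out the changes ran from -0.011 to 0.013 for Lrp6 (-0.021 with its probe sets averaged), -0.21 to 0.017 for Ror2, -0.0039 to 0.084 for Rspo4, -0.11 to 0.080 for Wnt1, -0.10 to 0.018 for Wnt10a, -0.036 to 0.049 for Wnt10b, -0.082 to 0.034 for Wnt11, -0.026 to 0.068 for Wnt2b, -0.022 to 0.089 for Wnt4, -0.14 to 0.0043 for Wnt7a, -0.16 to 0.020 for Wnt7b, -0.011 to 0.053 for Wnt8a and -0.0072 to 0.069 for Wnt9a. Another scaling moved the median change of all genes by less than 0.02. With 3 arrays per group, small changes near the background cannot be resolved.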

Other observations

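Of the 47 members, 3 had a second, dimmer probe set that was left out of the main fit. It entered the alternative with averaged probe sets. For Sfrp2 the second probe set read 6.65, 6.74 and 6.82 in Tie2-Cre mice 1, 3 and 4 and 6.40, 6.40 and 6.27 in no Cre mice 6, 7 and 10. Its change of 0.38 (SE 0.077, limma adjusted p 0.0158 over all probe sets with 1 symbol) had the direction of the brighter one, at 1.12, with a smaller size. The second probe set of Axin2 changed by 0.05 (SE 0.066, limma adjusted p 0.693), beside -0.14 for the one used, and neither passed. For Lrp6 the second probe set changed by -0.05 (SE 0.084, limma adjusted p 0.804), beside 0.0041.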
